A study of Drosophila melanogaster with 26 samples.

Results

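The experiment described here is the effect of a high-sugar diet on the fat body of Drosophila melanogaster larvae in 6 RNA-sequencing libraries, 3 from larvae reared on 0.7 M sucrose (numbers 19, 20 and 21) and 3 from larvae reared on 0.15 M sucrose (numbers 13, 14 and 15). They were chosen by their titles, as the cross w1118, D2, cg with these numbers, and are 6 of the 26 libraries of the series. All 6 came from female wandering larvae of the third instar from 1 cross, between males of the VDRC w1118 stock and females carrying UAS-Dcr2 on the X chromosome together with cg-GAL4. Larvae of both diets therefore carry the Dicer-2 transgene and the GAL4 driver, and no hairpin RNA, and the food was a modified Bloomington semi-defined diet. The cross was made as a control for RNA interference lines, and cg-GAL4 is known to be active in haemocytes as well as in fat body. Fat bodies were taken by fine dissection or were sheared and separated by centrifugation, and the labels do not say which was used for a given library. The other sets with both diets, used only for context, are w1118 cg with numbers 49 to 54 (6 libraries), w1118 r4 with numbers 55 to 63 (6 libraries), and 60100 r4 with numbers 67 to 92 (8 libraries), where 60100 is another VDRC stock and r4 another fat body driver; these crosses carry UAS-Dcr2 too.

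The insect fat body combines tasks that mammals divide between liver and adipose tissue. It turns dietary sugar into glycogen, into the blood sugar trehalose and into triglyceride held in lipid droplets, it breaks down amino acids and foreign compounds, and it secretes storage proteins, immune peptides and hormones. Larvae reared on high sugar are known to become hyperglycaemic, fat and slow to develop, and the question of the series was which fat body genes change with the diet.

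Values are multiples of the library's upper quartile, so a value of 1 is the level of a gene at the 75th percentile; Cufflinks, which the submitters' processing notes name, gives levels per length, but the labels do not describe the scaling. Log2 changes are high sugar minus control of log2(value + 1), given with their SE; with this pseudocount a low gene shows less than its true fold. Where 3 values are given for a diet, they are in the order 19, 20, 21 on high sugar and 13, 14, 15 on control. Between 7825 and 8360 features were above 0 in the high-sugar libraries and between 7945 and 8040 in the control libraries, of 14659 in the table, and the number of reads behind a value is unknown. All 10 fat body markers were above 0, and their summed values were 8541, 7472 and 7024 on high sugar, against 8498, 9814 and 9396 on control. The labels do not state whether replicates of a diet are independent collections, and the p-values therefore measure only the spread between these samples. In tissue RNA, fewer cells of a type and less RNA per cell cannot be told apart.

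Dcr-2, which all 6 libraries carry as a transgene beside the native gene, was measured at 19.6, 19.6 and 17.6 in high-sugar libraries 19, 20 and 21, against 60.7, 53.9 and 50.3 in control libraries 13, 14 and 15. Each high-sugar library lay below each control library, and the change was -1.49 ± 0.12 (limma adjusted p = 0.00554). Cg25C (Col4a1), the collagen IV gene whose regulatory region drives cg-GAL4, had 1.61, 1.25 and 1.25 on high sugar, against 1.36, 2.07 and 1.34 on control, with overlapping diets (-0.12 ± 0.14, adjusted p = 0.729). The Argonaute genes AGO1 (-0.10 ± 0.13) and AGO2 (0.09 ± 0.15), which use small RNAs, did not pass. The w gene, which the w1118 stock carries in mutant form, was below the filter on low values, at 0.166, 0.1301 and 0.0762 on high sugar, against 0.225, 0.267 and 0.328 on control.

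Across 2423 genes with a mean of at least 1, 70 passed limma at an adjusted p under 0.05, which is 2.89% of those tested. Of these, 13 were higher on high sugar (0.537%) and 57 were lower (2.35%). The called changes ran from 0.52 to 2.47 log2 units among the rises. Among the falls with values on both diets, the changes ran from -0.51 to -2.15, the last for CG32335. In all, 36 of the 70 changed by 1 log2 unit or more on this scale, with CG13135, listed at 0 on high sugar, among them. Over all genes tested the median change was -0.02, with 1302 negative changes among the 2423, and 471 genes had an unadjusted p under 0.05. In 214 genes (8.83%) all high-sugar libraries lay above all control libraries, in 417 (17.2%) all lay below them, and all 70 called genes were among these 631.

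**Figure D1:**
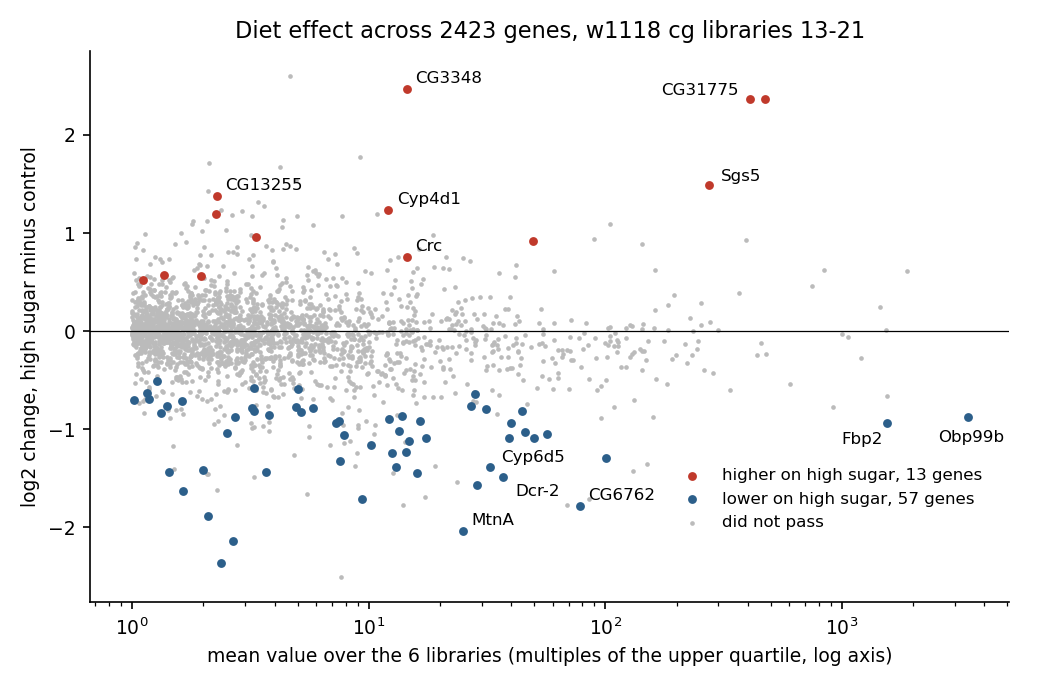
The log2 change (high sugar minus control, vertical axis) is plotted against the mean value over the 6 libraries (horizontal log axis) for 2423 genes, 1 point per gene. The 13 called rises (red) and 57 called falls (blue) are drawn over the genes that did not pass (grey), and most called genes lie below the zero line.

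The number of calls depended on single libraries. It was 30 without control library 13, 45 without control library 14, 27 without control library 15, 47 without high-sugar library 19, 19 without high-sugar library 20 and 53 without high-sugar library 21. Of the 70 genes, 17 passed whichever library was left out: the rises CG3348, CG31775, CG42586, CG13255 and Sgs5, and the falls CG15211, CG32335 (meep), Dcr-2, Cyp28d1, CG6762 (Srx), CG7224 (Sirup), Cyp6d5, GstD10, Kaz1-ORFB, Eip55E (Cth), CG15369 and Sodh-1. On log2(value + 1) the first principal component held 35.7% of the spread between libraries and separated the diets, with scores of 7.08, 11.6 and 11.9 on high sugar, against -10.9, -11.0 and -8.70 on control. The second component, with 29.8%, set libraries 19, 20 and 14 (scores of 8.81, 5.79 and 12.5) against libraries 21, 13 and 15 (-12.04, -9.86 and -5.20) and so crossed the diets.

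The largest called rise was that of CG3348, a gene of little known function, with 30.6, 28.8 and 16.98 in high-sugar libraries 19, 20 and 21, against 3.299, 3.497 and 4.16 in control libraries 13, 14 and 15. Library 21 had the lowest of the high-sugar values, and no value of 1 diet reached those of the other (2.47 ± 0.23, adjusted p = 0.00554). CG31775 stood at 699.6, 932 and 741 on high sugar, against 127, 208 and 131 on control, and rose by 2.37 ± 0.23 (adjusted p = 0.00554). Its near copy CG42586 rose by 2.37 ± 0.23, and the ratio of the 2 genes lay between 1.1521 and 1.1525 in every library, so their reads cannot be told apart and the pair counts as 1 signal. CG13255 had 3.57, 3.66 and 4.02 on high sugar, against 0.8005, 0.819 and 0.863 on control, and its spread within each diet was small beside its rise of 1.38 ± 0.09 (adjusted p = 0.0031). CG5773, with 60.3, 76.7 and 58.7 on high sugar, against 32.5, 33.9 and 34.7 on control, rose by 0.92 ± 0.14 (adjusted p = 0.025). Cyp4d1 and Cyp4p1, Crc, and Sgs5 are described with their families below. The remaining called rises were in genes of lower level: CG3036 (1.20 ± 0.19), CG15209 (0.58 ± 0.09), CG17124 (0.56 ± 0.10) and CG7637 (Nop10, a part of the machinery that modifies ribosomal RNA, 0.52 ± 0.09). CG13947, Lsd-1 and CG14265 came next by p among genes whose mean reached 5 on 1 diet or more, and did not pass. Of these, CG13947 had 9.898, 7.77 and 7.58 on high sugar, against 0, 2.66 and 0 on control (adjusted p = 0.0525).

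**Figure D2:**
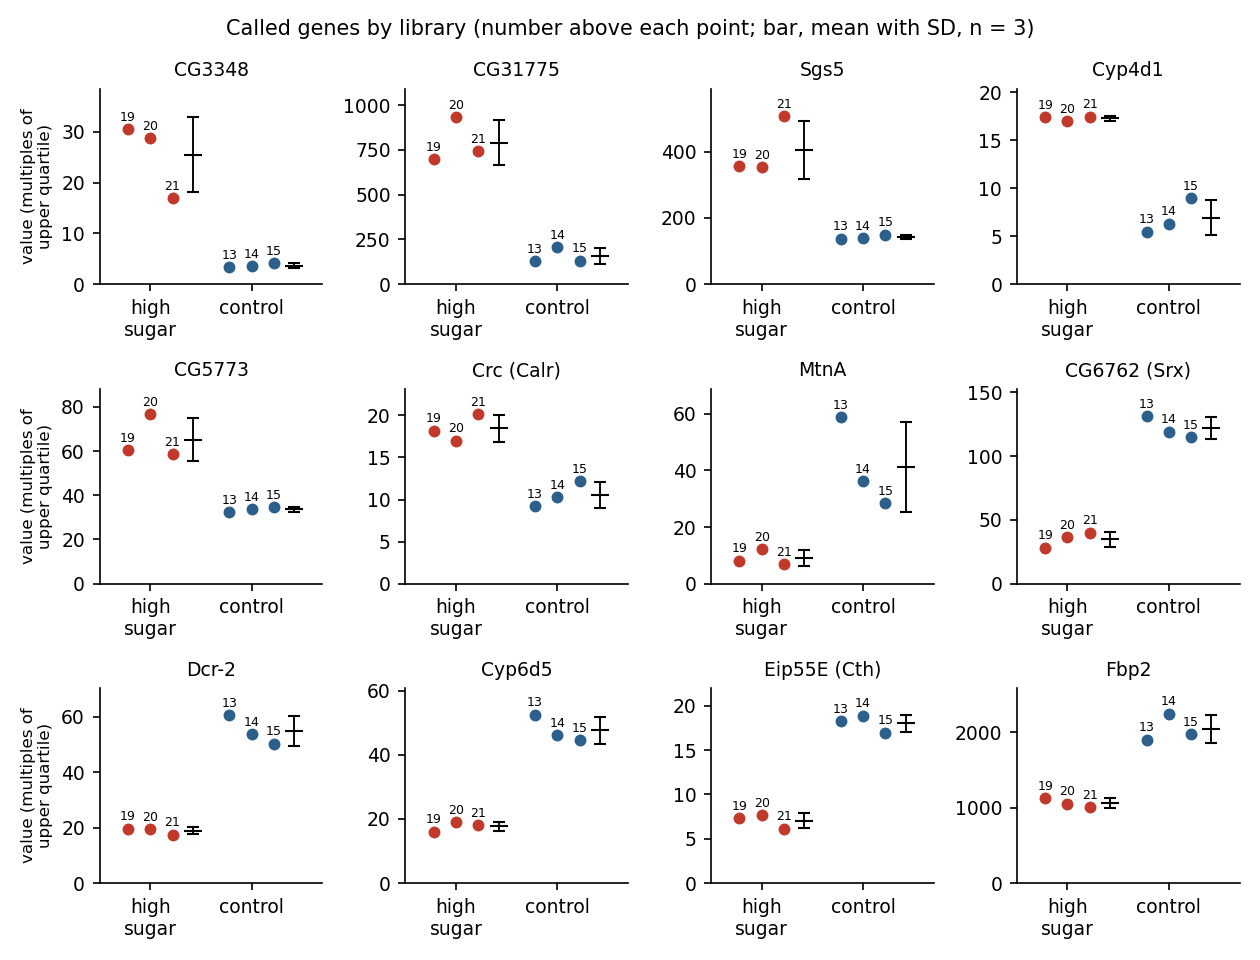
Values of 12 called genes are shown by library as multiples of the upper quartile, with high-sugar libraries 19, 20 and 21 (red) left of control libraries 13, 14 and 15 (blue), each axis starting at 0, and the mean with its SD (n = 3) beside each diet. In each of these 12 genes the diets do not overlap; MtnA has the widest spread on control, with library 13 at 58.9.

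Several genes that handle peroxides and glutathione were among the falls. CG6762 (Srx), sulfiredoxin, which restores overoxidised peroxiredoxin, had 28.3, 36.4 and 39.9 in high-sugar libraries 19, 20 and 21, against 132, 119 and 115 in control libraries 13, 14 and 15, and changed by -1.79 ± 0.16 (adjusted p = 0.00554). All 3 high-sugar values were below all control values. Catalase, the product of Cat, breaks down hydrogen peroxide: the gene had 21.7, 22.9 and 23.3 on high sugar, against 36.9, 41.5 and 41.6 on control, a fall with little spread within either diet (-0.79 ± 0.11, adjusted p = 0.0209). PHGPx (Gtpx), a glutathione peroxidase that acts on lipid peroxides, had 30.2, 32.7 and 32.7 on high sugar, against 50.5, 62.1 and 57.9 on control (-0.81 ± 0.12, adjusted p = 0.025). In the list of oxidative stress and glutathione genes 0 of 21 tested members rose and 3 fell, GstD10, GstD3 and Cat, against 0.537% and 2.35% of all genes, with a median change of -0.18 against -0.02 over all genes. CG6762 and PHGPx were not on that list. CG6762 was named for the size of its change and PHGPx after its values were seen.

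Glutathione S-transferases join glutathione to reactive compounds. Of 22 such genes 14 passed the filter on low values. Of these 0 rose and 4 fell (against 0.537% and 2.35% of all genes), with 11 negative changes and a median of -0.50 (against -0.02). The family was singled out after its values were seen. Members were taken by the symbol Gst, except CG1681 and CG30000, which were added by hand and are both among the 4 that fell. No other gene was added in this way, so the counts and the median lean towards falls. GstD10 had 7.48, 8.82 and 8.18 on high sugar, against 19.8, 22.3 and 19.5 on control (-1.23 ± 0.12, adjusted p = 0.00554). CG1681 (GstT4) had 5.27, 4.195 and 2.35 on high sugar, against 13.7, 12.6 and 18.1 on control (-1.71 ± 0.26, adjusted p = 0.025), with library 21 lowest. GstD3 (-1.04 ± 0.13, adjusted p = 0.0165) and CG30000 (GstT1, -0.77 ± 0.10, adjusted p = 0.0165) fell as well. GstS1 had 7.01, 7.03 and 6.68 on high sugar, against 10.01, 10.5 and 11.9 on control without overlap and did not pass (-0.57 ± 0.11, adjusted p = 0.0538). GstD1, the member with the highest level, had 38.96, 40.2 and 35.1 on high sugar, against 45.97, 55.8 and 44.9 on control and did not pass (-0.35 ± 0.13, adjusted p = 0.226). Jafrac1 (Prx2), a cytosolic peroxiredoxin, was on the positive side (0.54 ± 0.23) with overlapping diets and did not pass. The median of the glutathione S-transferases stayed negative under both other scalings, at -0.59 after median-of-ratios scaling and -0.43 after quantile normalization.

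Cytochrome P450 enzymes oxidise steroids, fatty acids and foreign compounds. Of 77 listed genes 23 were tested, and of these 2 rose and 2 fell (against 0.537% and 2.35% of all genes), with 8 positive and 15 negative changes (1302 of 2423 were negative over all genes) and a median of -0.33 (against -0.02). Cyp4d1, of the family whose mammalian members act on fatty acids, had 17.4, 16.99 and 17.5 on high sugar, against 5.48, 6.32 and 8.98 on control, nearly the same value in all 3 high-sugar libraries (1.23 ± 0.18, adjusted p = 0.0217). Cyp4p1 had 5.33, 4.65 and 4.23 on high sugar, against 2.06, 2.28 and 1.51 on control (0.96 ± 0.14, adjusted p = 0.025). On the other side, Cyp28d1 had 7.79, 8.62 and 8.01 on high sugar, against 27.1, 22.5 and 22.5 on control (-1.45 ± 0.12, adjusted p = 0.00554). Cyp6d5 had 16.1, 18.9 and 18.1 on high sugar, against 52.5, 46.1 and 44.5 on control (-1.38 ± 0.13, adjusted p = 0.00554). Both of these belong to families known for detoxification, and in both the spread within a diet was small beside the difference. Cyp4e3 had 6.002, 4.85 and 0.939 on high sugar, against 0.346, 0.301 and 0.275 on control without overlap, but its value in library 21 was far below those in 19 and 20 and it did not pass (1.72 ± 0.46, adjusted p = 0.107). Cyp4s3 was listed near 0 in libraries 19 and 20 and at 2.53 in library 21, against 3.48, 3.61 and 4.03 on control, and did not pass (-1.62 ± 0.48, adjusted p = 0.132).

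**Figure D3:**
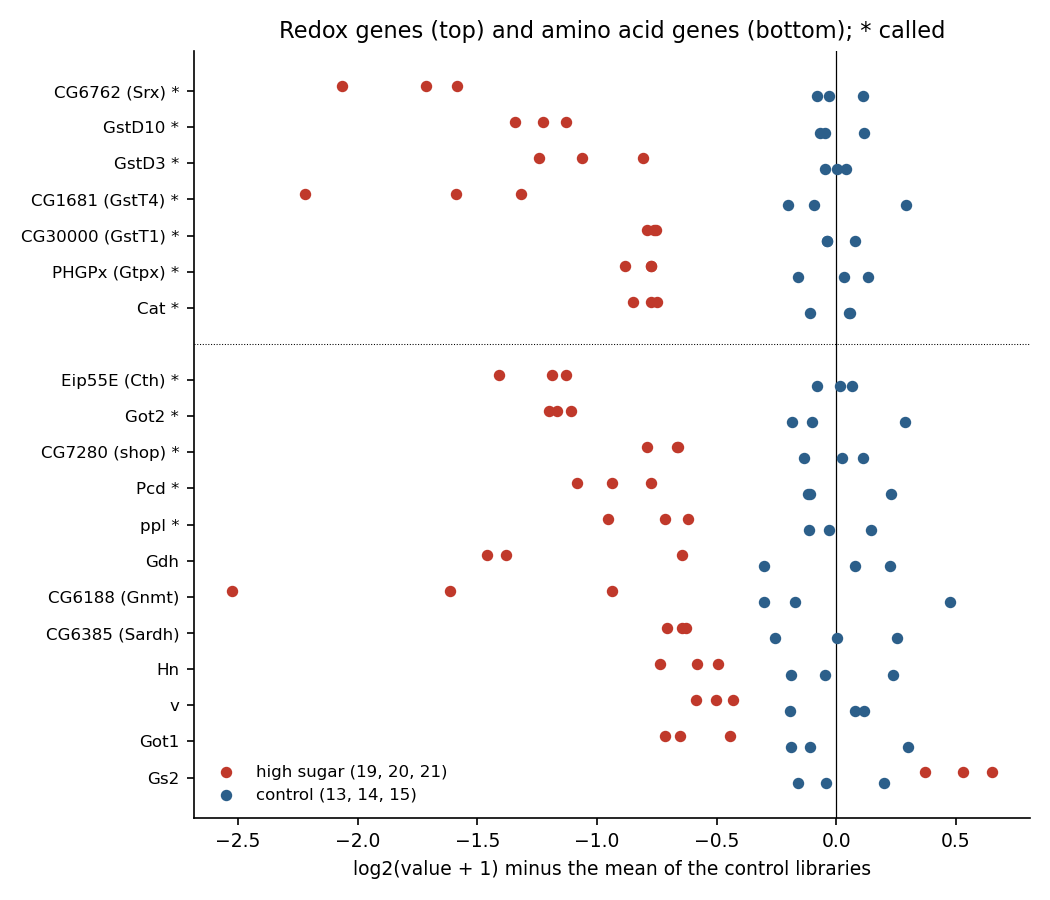
The horizontal axis is log2(value + 1) minus the mean of the control libraries, with high-sugar libraries (red, upper row of each gene) and control libraries (blue, lower row), 3 points each, for redox genes above the dotted line and amino acid genes below it; an asterisk marks the called genes. In the called genes every high-sugar point lies left of every control point, and in Gs2 every high-sugar point lies right of them. The redox genes drawn are only genes that were called lower. The oxidative stress and glutathione list had 7 positive and 14 negative changes among 21 tested genes, and its members that did not pass are not drawn.

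The list of amino acid breakdown, polyamine and folate genes had the lowest median change of the pathway lists. It holds enzymes of amino acid breakdown, and also ornithine decarboxylases (Odc1, Odc2), folate enzymes (Nmdmc, CG3011) and glutamine synthetases (Gs1, Gs2). Of 15 tested genes 0 rose and 1 fell (against 0.537% and 2.35% of all genes), 12 changes were negative and 3 positive, and the median was -0.60 against -0.02 over all genes. In 9 of the 15 all control values lay above all high-sugar values, against 17.2% of all genes. The called member was Got2, the mitochondrial aspartate aminotransferase, with 5.71, 6.18 and 5.89 in high-sugar libraries 19, 20 and 21, against 12.6, 13.4 and 17.8 in control libraries 13, 14 and 15. Its high-sugar values were nearly equal and control library 15 was the highest (-1.16 ± 0.15, adjusted p = 0.0171). Gdh, glutamate dehydrogenase, had 5.79, 2.86 and 3.09 on high sugar, against 7.62, 11.4 and 10.2 on control, without overlap, and did not pass (-1.16 ± 0.26, adjusted p = 0.0713). CG6188 (Gnmt), which uses S-adenosylmethionine to methylate glycine, had 7.76, 13.02 and 3.66 on high sugar, against 20.8, 36.2 and 22.8 on control, the widest spread of these genes (-1.69 ± 0.42, adjusted p = 0.0922). CG6385 (Sardh), sarcosine dehydrogenase, had 1.27, 1.25 and 1.15 on high sugar, against 2.52, 1.94 and 3.19 on control (-0.66 ± 0.14, adjusted p = 0.071). Hn, phenylalanine hydroxylase, had 26.4, 28.2 and 23.7 on high sugar, against 47.5, 38.8 and 35.1 on control (-0.60 ± 0.15, adjusted p = 0.0933). For v, tryptophan dioxygenase, the values were 1.42, 1.18 and 1.31 on high sugar, against 1.86, 2.55 and 2.45 on control (-0.51 ± 0.12, adjusted p = 0.0823). Got1, the cytosolic aspartate aminotransferase, was at -0.60 ± 0.16 (adjusted p = 0.108). Each of these last 6 genes lacked overlap between the diets and missed the threshold, as did Odc2 (-0.62 ± 0.22, adjusted p = 0.193) and CG3011 (Shmt, -0.72 ± 0.23, adjusted p = 0.154). Gs2, a glutamine synthetase, was the 1 member without overlap on the positive side, with 2.13, 1.57 and 1.87 on high sugar, against 0.786, 0.937 and 1.29 on control (0.52 ± 0.13, adjusted p = 0.0954).

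Further genes of nitrogen and sulphur metabolism, outside that list, were called lower. Of these Eip55E was named for the size of its change and the others after their values were seen. Eip55E (Cth), cystathionine gamma-lyase, which forms cysteine from cystathionine, had 7.33, 7.69 and 6.15 in high-sugar libraries 19, 20 and 21, against 18.2, 18.9 and 16.96 in control libraries 13, 14 and 15, with little spread within either diet (-1.24 ± 0.12, adjusted p = 0.00588). It also stands on the ecdysone list, named for the moulting hormone. There it was the 1 call among 9 tested (2.35% of all genes were called lower). CG7280 (shop), sulfite oxidase, acts at the end of cysteine breakdown and had 0.443, 0.575 and 0.578 on high sugar, against 1.27, 1.54 and 1.7 on control (-0.71 ± 0.10, adjusted p = 0.0217). Pcd, which recycles the pterin cofactor of Hn, had 5.31, 4.09 and 4.64 on high sugar, against 8.96, 11.7 and 8.996 on control (-0.93 ± 0.15, adjusted p = 0.0261). The product of ppl is a subunit of the glycine cleavage system, and the gene had 21.8, 17.1 and 20.3 on high sugar, against 33.3, 37.7 and 31.4 on control (-0.76 ± 0.14, adjusted p = 0.0462). UK114, of a family of enzymes that remove reactive enamines, had 33.6, 29.7 and 26.1 on high sugar, against 62.1, 66.5 and 56.8 on control (-1.03 ± 0.14, adjusted p = 0.0179).

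Further called falls were in genes of varied roles, which form no list. MtnA and CG7224 were named for the size of their change and Npc2a for its p within its list. The others were named after their values were seen. MtnA, a metallothionein that binds copper and zinc, had 8.07, 12.1 and 6.98 on high sugar, against 58.9, 36.2 and 28.4 on control, and library 13 was the highest of all (-2.04 ± 0.31, adjusted p = 0.025). Ctr1B, a copper importer, had 2.41, 2.15 and 1.71 on high sugar, against 4.58, 4.49 and 3.89 on control (-0.79 ± 0.13, adjusted p = 0.0282). Npc2a, a lysosomal sterol carrier, had 9.98, 9.95 and 13.6 on high sugar, against 18.8, 22.4 and 24.2 on control (-0.91 ± 0.17, limma adjusted p = 0.0457). It was the 1 call among 9 tested genes of autophagy and the lysosome (2.35% of all genes were called lower). Sodh-1, sorbitol dehydrogenase of the polyol pathway, had 0.603, 0.775 and 0.474 on high sugar, against 2.49, 3.68 and 3.91 on control (-1.42 ± 0.16, adjusted p = 0.00973). CG4484 (Slc45-1), of a family of sugar transporters, had 3.38, 3.46 and 3.49 on high sugar, against 7.99, 6.01 and 6.799 on control (-0.83 ± 0.12, adjusted p = 0.025). CG7224 (Sirup), named for its rise under starvation and known as an assembly factor of succinate dehydrogenase, had 16.4, 13.1 and 12.6 on high sugar, against 42.99, 40.1 and 47.2 on control (-1.57 ± 0.14, adjusted p = 0.00554). CG9034 (NdufA3), a subunit of respiratory complex I, had 0.3301, 0.137 and 0.457 on high sugar, against 2.04, 3.37 and 2.29 on control (-1.44 ± 0.17, limma adjusted p = 0.0117). The list of 20 other tested genes of the respiratory chain and ATP synthase had 0 calls and a median of 0.04 (against 2.89% and -0.02 over all genes). Acox57D-p, a peroxisomal acyl-CoA oxidase, had 0.872, 0.956 and 0.819 on high sugar, against 1.62, 1.69 and 1.73 on control (-0.51 ± 0.09, limma adjusted p = 0.0314). Of 14 listed genes of lipolysis and fatty acid oxidation 0 passed (against 2.89% of all genes). In lists of this size 0 calls says little.

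Some falls lay in the storage protein list and among odorant-binding proteins and peptidoglycan recognition proteins. Fbp2, an abundant fat body protein of the wandering larva, had 1129, 1054 and 1006 in high-sugar libraries 19, 20 and 21, against 1902, 2246 and 1978 in control libraries 13, 14 and 15, without overlap (-0.94 ± 0.11, adjusted p = 0.0117). Among the other 6 genes of the storage protein list, which holds Fbp1 and regucalcin beside the Lsp genes, 0 passed (against 2.89% of all genes). Lsp1alpha had 1298, 1444 and 897 on high sugar, against 1762, 2196 and 1732 on control (-0.66 ± 0.20, limma adjusted p = 0.141). Lsp2 (0.01 ± 0.18) and Fbp1 (-0.06 ± 0.24) had overlapping diets. Obp99b, an odorant-binding protein, was the most abundant feature in library 19 and in all control libraries, with 2515, 2298 and 2330.0 on high sugar, against 3665, 4641 and 4929 on control (-0.88 ± 0.14, adjusted p = 0.025). Of the 7 tested odorant-binding protein genes it was the 1 that passed (2.35% of all genes were called lower). PGRP-SA, which recognises peptidoglycan ahead of the Toll pathway, had 2.503, 2.08 and 2.59 on high sugar, against 4.499, 5.599 and 5.38 on control (-0.86 ± 0.12, limma adjusted p = 0.0217). It was the 1 call among 4 tested recognition proteins (against 2.35% of all genes called lower). The antimicrobial and immune-induced peptides had 0 calls among 19 (against 2.89% of all genes). Their summed value was 127, 135 and 348 on high sugar, against 196, 202 and 141 on control. Library 21 was the highest of the 6 in 14 of these 19 genes, for example at 25.2 for IM2 (BomS2), so these genes varied within the high-sugar diet.

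The other called falls were in genes for which the table gives an identifier and little is known, or whose roles are not used here. CG15211 had 0.277, 0.463 and 0.228 on high sugar, against 3.71, 4.22 and 3.66 on control and the smallest p of all genes (-1.88 ± 0.11, adjusted p = 0.00307). CG32335 (meep) had 0.276, 0.564 and 0.209 on high sugar, against 4.31, 4.73 and 5.86 on control (-2.15 ± 0.15, adjusted p = 0.0031). CG9691 had 30.3, 30.9 and 34.1 on high sugar, against 63.3, 74.6 and 67.91 on control (-1.09 ± 0.12, adjusted p = 0.00973), and CG15369 had 63.6, 49.1 and 61.7 on high sugar, against 144, 138 and 147 on control (-1.29 ± 0.14, adjusted p = 0.00789). CG13135 was listed at 0 in all 3 high-sugar libraries, against 1.76, 4.68 and 7.77 on control, and also at 0 in all 20 libraries of the other sets, so no fold is given. The reverse held for CG13920, below the filter, with 1.32, 1.14 and 1.27 on high sugar and 0 in all 3 control libraries; it was above 0 in 10 of the 20 libraries of the other sets. Also called lower were Kaz1-ORFB (-1.32 ± 0.13), CG33225 (-1.44 ± 0.22), CG34215 (-1.39 ± 0.26), CG10962 (-1.12 ± 0.19), CG6870 (-1.09 ± 0.20), CG31313 (-1.05 ± 0.18), CG11686 (-1.01 ± 0.18), CG18563 (-0.93 ± 0.13), CG15203 (-0.91 ± 0.12), CG16758 (-0.90 ± 0.12), CG5493 (-0.87 ± 0.12), CG4325 (-0.79 ± 0.12), CG30010 (-0.77 ± 0.12), CG10171 (-0.72 ± 0.13), CG11241 (-0.69 ± 0.11), Reg-2 (-0.64 ± 0.11), CG17218 (crok, -0.64 ± 0.10), CG9586 (-0.59 ± 0.11) and CG33099 (-0.58 ± 0.10). The neighbours CG34436 (-1.06 ± 0.17) and CG34437 (-0.88 ± 0.14) fell together, as did Npc2a and its neighbour Got2. CG9486 (AANATL2), of the arylalkylamine N-acetyltransferase family, fell as well (-0.81 ± 0.10). A predicted noncoding feature and another predicted feature make up the 57, with Mlc2, which is given with the muscle markers.

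The lists of sugar and fat metabolism, by which fat body handles a sugar load, held no called gene. Over all genes tested 2.89% were called, so 0 calls in lists of this size says little about them. Glycolysis had 0 of 10, trehalose, glycogen and gluconeogenesis 0 of 11, the pentose phosphate and NADPH list 0 of 6, fatty acid synthesis 0 of 5 and triglyceride synthesis 0 of 6, with medians of 0.18, 0.08, 0.19, 0.41 and 0.16. In glycolysis the diets did not overlap in 4 genes, 2 with high sugar above and 2 with control above. The shares over all genes were 8.83% with high sugar above and 17.2% with control above. The enzymes PyK (pyruvate kinase, 0.37 ± 0.10, adjusted p = 0.103) and Eno (enolase, 0.18 ± 0.10, adjusted p = 0.366) had positive changes, and Tpi (triosephosphate isomerase, -0.47 ± 0.18, adjusted p = 0.224) and Gapdh1 (glyceraldehyde phosphate dehydrogenase, -0.28 ± 0.12, adjusted p = 0.249) negative ones. In the other 4 lists 5 genes lacked overlap, all with high sugar above: Gpdh, AcCoAS, Lsd-1, Pepck and CG10924 (Pepck2, 0.54 ± 0.24, adjusted p = 0.287). Gpdh (Gpdh1), which makes the glycerol phosphate backbone of fat, had 7.06, 6.07 and 2.97 in high-sugar libraries 19, 20 and 21, against 1.17, 1.83 and 1.41 in control libraries 13, 14 and 15. The diets did not overlap and library 21 was well below 19 and 20 (1.31 ± 0.28, adjusted p = 0.0643). AcCoAS, acetyl-CoA synthetase, had 7.58, 6.15 and 3.98 on high sugar, against 2.68, 3.095 and 2.56 on control (0.84 ± 0.21, adjusted p = 0.0933). The lipid droplet protein Lsd-1 had 45.1, 40.8 and 43.1 on high sugar, against 25.8, 29.1 and 29.9 on control (0.59 ± 0.12, adjusted p = 0.0543). Pepck (Pepck1), of gluconeogenesis, had 38.05, 28.1 and 34.2 on high sugar, against 18.1, 18.3 and 23.3 on control (0.72 ± 0.17, adjusted p = 0.0753). In none of these genes did the difference pass over all genes tested.

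Other lipogenic genes overlapped between the diets, and library 21 was the lowest high-sugar library in each of those named here. For desat1 (Desat1), which makes monounsaturated fatty acids, the values were 36.9, 31.9 and 13.8 on high sugar, against 11.6, 20.7 and 12.9 on control (0.76 ± 0.39, adjusted p = 0.348). CG3523 (FASN1), fatty acid synthase, had 4.28, 3.71 and 1.67 on high sugar, against 1.903, 3.33 and 1.23 on control (0.41 ± 0.34, adjusted p = 0.569), and Men, malic enzyme, had 3.97, 3.47 and 1.59 on high sugar, against 1.89, 1.95 and 2.18 on control (0.36 ± 0.25, adjusted p = 0.489). The summed value of the fatty acid synthesis list was 52.9, 44.9 and 22.2 on high sugar, against 19.5, 30.9 and 19.5 on control. Without library 21 the median change of this list was 0.72, against 0.41 with all 6 libraries. Tps1, which makes trehalose (0.21 ± 0.17), bmm, the main triglyceride lipase (-0.01 ± 0.16), and sugarbabe (sug), a sugar-induced transcription factor (0.48 ± 0.17), had overlapping diets and did not pass. The sugar sensor dmondo (Mondo), with 3.01, 2.78 and 2.41 on high sugar, against 1.6, 1.83 and 1.695 on control, did not overlap and did not pass (0.46 ± 0.11, adjusted p = 0.0778).

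Among hormones and nutrient signalling genes 0 of 7 and 0 of 6 passed (against 2.89% of all genes). Of the 7 hormone genes 2 lay higher on high sugar without overlap and 2 lower (against 8.83% and 17.2% of all genes). CG14375 (CCHa2), a peptide that fat body sends to the brain, had 9.5, 6.27 and 7.101 on high sugar, against 5.44, 4.45 and 4.29 on control (0.58 ± 0.17, adjusted p = 0.13). ImpL2, which binds insulin-like peptides, was also on the positive side (0.50 ± 0.19, adjusted p = 0.224). CG15917 (Gbp1), a peptide that links fat body amino acid supply to insulin release, had 18.8, 21.8 and 33.5 on high sugar, against 47.3, 33.7 and 53.02 on control (-0.85 ± 0.26, adjusted p = 0.143), and its relative CG11395 (Gbp2) had 18.02, 16.04 and 18.9 on high sugar, against 24.99, 22.1 and 23.04 on control (-0.39 ± 0.12, adjusted p = 0.14). Ilp6, an insulin-like peptide (-0.17 ± 0.17), and Thor, a translation inhibitor switched on when insulin signalling is low (-0.25 ± 0.11), did not pass. All 9 tested genes of purine synthesis and urate oxidase had negative changes, with a median of -0.41 and 0 calls (against 1302 of 2423, -0.02 and 2.89% over all genes). The clearest was ade3 (Gart), which catalyses several steps of purine synthesis, with 3.88, 4.45 and 5.01 on high sugar, against 12.99, 7.48 and 13.3 on control (-1.14 ± 0.23, adjusted p = 0.0566).

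All 11 genes of folding in the endoplasmic reticulum had positive changes, with a median of 0.25 and 1 call. Crc (Calr), the calcium-binding chaperone calreticulin, had 18.2, 17 and 20.2 on high sugar, against 9.203, 10.3 and 12.2 on control (0.76 ± 0.14, adjusted p = 0.0473), but it passed in none of the fits that left out a library. Gp93, a chaperone of the Hsp90 family, had 3.41, 4.03 and 3.87 on high sugar, against 1.15, 1.87 and 2.39 on control (0.79 ± 0.18, adjusted p = 0.0753), and Hsc70-3, known as BiP, had 19.8, 26.9 and 29.4 on high sugar, against 13.9, 16.99 and 16.2 on control (0.64 ± 0.18, adjusted p = 0.111). Neither passed, and in neither did the diets overlap. Vacuolar ATPase subunits were positive in 13 of 14 genes with a median of 0.11 and 0 calls. Cytosolic ribosomal protein genes had 0 calls among 79, with 58 negative and 21 positive changes and a median of -0.14, which turned to 0.04 after quantile normalization. The ecdysone list, apart from Eip55E, gave no further call, and br, an early ecdysone gene, had 4.96, 3.56 and 5.62 on high sugar, against 5.22, 3.77 and 4.62 on control (0.04 ± 0.18). The TCA cycle (13 tested), heat shock (9), lipid carrier (4), sugar-sensing factor (4), basement membrane (6), actin cytoskeleton (9), mitochondrial ribosomal protein (9) and proteasome (28) lists had 0 calls each, with medians between -0.11 and 0.25; that of the actin list was -0.09, and 0.03 after quantile normalization.

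Markers of other tissues differed between the libraries and partly with the diet. Of the salivary gland list, which holds the glue genes, 12 of 18 genes were tested. All 12 changes were positive, with 1 call and a median of 0.62 (0.537% of all genes were called higher, with a median of -0.02 over all genes). Summed, the list had 2710, 5234 and 6055 on high sugar, against 2189, 2355 and 3658 on control. Sgs5, a glue protein gene, had 357, 353 and 507 in high-sugar libraries 19, 20 and 21, against 138, 138 and 149 in control libraries 13, 14 and 15 and was called higher (1.49 ± 0.17, adjusted p = 0.00973). Sgs7, at 1181, 2622 and 3155 on high sugar, against 1082, 1172 and 2144 on control, overlapped between the diets (0.61 ± 0.43), and Sgs3, at 305, 597 and 675 on high sugar, against 234, 265 and 289 on control, did not (0.92 ± 0.30, adjusted p = 0.159). Sgs7 was the most abundant feature of libraries 20 and 21. The part of salivary gland RNA in the other changes was not tested beyond a fit with these markers as a covariate, given with the muscle markers.

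Most of the tested muscle and cuticle genes lay on the opposite side. Of 11 muscle genes 6 were tested, 5 of them with negative changes, and their median was -0.77 (against 1302 of 2423 and -0.02 over all genes). Their summed values were 10.2, 6.72 and 6.54 on high sugar, against 14.1, 19.6 and 12.4 on control, without overlap. Mlc2, the regulatory light chain of muscle myosin, was called lower at 0.887, 0.608 and 0.512 on high sugar, against 1.95, 2.34 and 1.66 on control (-0.84 ± 0.13, adjusted p = 0.026), and Act57B, a muscle actin, had 2.29, 1.61 and 1.67 on high sugar, against 3.82, 6.36 and 3.96 on control without passing (-0.98 ± 0.20, adjusted p = 0.0577). The defining muscle gene Mhc was near 0, at 0.139, 0.0688 and 0.0768 on high sugar, against 0.157, 0.332 and 0.183 on control. Of 111 cuticle genes 82 were at 0 in all 6 libraries and 8 were tested. These had 7 negative changes, 0 calls (against 2.89% of all genes) and a median of -1.37. The median was carried by larval cuticle genes such as Lcp4 (16.04, 8.64 and 6.92 on high sugar, against 31.1, 22.2 and 29.4 on control, limma adjusted p = 0.0709). Among the 7, Lcp65Ab1 and Lcp65Ab2 had nearly equal values in every library. Summed over the whole cuticle list the diets overlapped, at 350, 249 and 302 on high sugar, against 359, 351 and 323 on control. With the mean of the salivary gland markers as a covariate 0 of 2423 genes passed with limma (242 at an unadjusted p under 0.05), and with that of the muscle markers 0 passed (254 at an unadjusted p under 0.05). With the muscle covariate the medians were -0.52 for the salivary gland list and 0.28 for the cuticle list, against 0.62 and -1.37 without it. The amino acid, polyamine and folate list was at -0.77 (against -0.60) and oxidative stress and glutathione at -0.22 (against -0.18). List medians with the salivary gland covariate are not given here, and the part of tissue makeup in any list was not tested. Both marker means lean with the diet, so in 6 libraries the diet and these markers cannot be told apart.

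Midgut genes varied widely within both diets, and the diets overlapped in all 8 tested genes. Their summed value was 92.6, 141 and 20.5 on high sugar, against values between 13.6 and 115 on control, with libraries 20, 14 and 19 the highest. Of the 8 tested genes, out of 20 listed, 7 had positive changes and 1 a negative one, with a median of 0.42 and 0 calls, and alphaTry, a digestive trypsin, had 4.35, 12.6 and 2.41 on high sugar, against 0.373, 3.35 and 2.91 on control (1.14 ± 0.63). With the mean of the midgut markers as a covariate 11 genes were higher and 57 lower, and 57 of the 70 genes still passed. Haemocyte genes, where cg-GAL4 is also active, summed to 34.2, 28.2 and 40.7 on high sugar, against 41.7, 35.5 and 40.2 on control, nearly all of it from vir-1, while the defining genes were near 0, Hml at 0.2198, 0.211 and 0.16 on high sugar, against 0.249, 0.1401 and 0.129 on control and nimC1 at 0.169, 0.142 and 0.143 on high sugar, against 0.159, 0.1601 and 0.171 on control, and lz was listed at 0 in all 6. Markers of neuron and glia (Syt1, -0.20 ± 0.19), Malpighian tubule (Uro, -0.41 ± 0.26) and oenocyte (svp, -0.05 ± 0.12) had 1 tested gene each and 0 calls. Ring gland, germline and ovary, testis, imaginal disc and trachea lists had no gene above the filter.

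**Figure D4:**
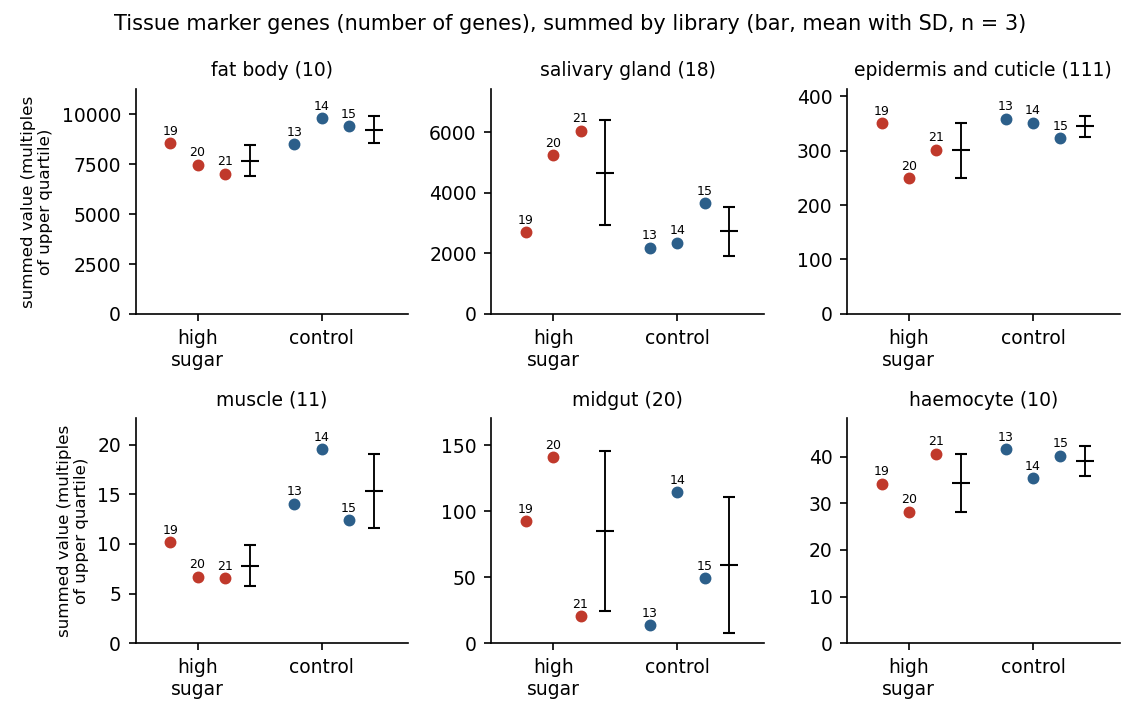
Summed values of the marker genes of 6 tissues (number of genes in each title) are shown by library as multiples of the upper quartile, with high-sugar libraries (red) left of control libraries (blue) and the mean with its SD (n = 3) beside each diet. Muscle genes are the list whose summed values do not overlap between the diets, salivary gland genes are highest in libraries 20 and 21, and midgut genes are highest in 20 and 14.

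The same cross was also sequenced on both diets as libraries 49 to 54. There 798 of the same 2423 genes passed (32.9%), 515 of them higher on high sugar, against 70 and 13 in libraries 13 to 21. The median size of the change over all genes was 0.18 log2 units in libraries 13 to 21 and 0.32 in libraries 49 to 54, while the median SE was 0.15 and 0.13. Of the 70 genes called in libraries 13 to 21, 31 were called in the same direction in libraries 49 to 54 (44.3% of the 70 and 3.88% of the 798), and 1 in the opposite one. The direct test of the difference between the 2 diet effects passed for 584 genes (24.1%), with a lower effect in libraries 13 to 21 for 421 and a higher one for 163. Of the 70 called genes 40 were among these 584. The 70 were picked by their change in libraries 13 to 21, which is part of this difference, so their share is raised by that choice.

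CG15209 was the 1 gene called in opposite directions in the 2 sets of this cross, at 0.58 ± 0.09 in libraries 13 to 21 and -0.98 ± 0.11 in libraries 49 to 54, a difference of 1.55 ± 0.15 (adjusted p = 0.000308). Sgs5 changed by 1.49 in libraries 13 to 21 and by -2.76 ± 0.88 in libraries 49 to 54, where it did not pass, and the difference was 4.25 ± 0.91 (adjusted p = 0.00751). The salivary gland list had a median of 0.62 in libraries 13 to 21 and -2.01 in libraries 49 to 54. CG7224 (Sirup) differed by -1.33 ± 0.20 (adjusted p = 0.00178), having changed by -1.57 in libraries 13 to 21 and by -0.25 ± 0.12 in libraries 49 to 54. Cyp28d1 (difference -1.26 ± 0.16, adjusted p = 0.00112) and GstD10 (difference -1.19 ± 0.26, adjusted p = 0.00857) also had lower effects in libraries 13 to 21; neither passed in libraries 49 to 54. Genes that rose in both sets rose less here: Cyp4d1 by 1.23 against 2.73 ± 0.22 (difference -1.50 ± 0.29, adjusted p = 0.00529), and CG5773 by 0.92 against 2.37 ± 0.12 (difference -1.45 ± 0.20, adjusted p = 0.00122). CG3348, at 2.47 ± 0.23 against 3.18 ± 0.20, did not differ past the threshold (difference -0.71 ± 0.33, adjusted p = 0.135). The same was so of Dcr-2 (difference 0.39 ± 0.27, adjusted p = 0.316).

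Counts of list members whose diet effect differed between the 2 sets of this cross are read against the 24.1% of all genes that did; no list was tested as such. In glycolysis 8 of 10 genes were called higher there, the median change was 0.18 in libraries 13 to 21 and 0.98 in libraries 49 to 54, and the difference passed for 6 genes. In the trehalose list 9 of 11 were called higher there, and 6 genes differed, Tps1 by -1.24 ± 0.26 (adjusted p = 0.00656). The cytochrome P450 list had medians of -0.33 in libraries 13 to 21 and 0.45 in libraries 49 to 54, and 15 of its 23 genes differed. For the amino acid, polyamine and folate list the medians were -0.60 in libraries 13 to 21 and 0.00 in libraries 49 to 54, with 6 of 15 genes differing.

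Against the mean of the 3 other sets the diet effect differed for 477 genes (19.7%), 137 with a higher and 340 with a lower effect in libraries 13 to 21. Of the 70 called genes 38 were among them, and here too the 70 were picked by a change that is part of the difference. In the r4 sets 290 genes (12.0%) passed in libraries 55 to 63 and 424 (17.5%) in libraries 67 to 92, and 15 and 21 of the 70 were called there in the same direction. Called in the same direction in every set were CG3348, CG31775, CG42586, Cyp4d1, CG5773 and CG17124 among the rises, and CG32335 and CG6762 among the falls. By contrast 30 of the 70 were called in the same direction in none of the others, among them GstD10, Fbp2, PGRP-SA, Obp99b, PHGPx, UK114 and CG9691. In the amino acid, polyamine and folate list 9 of 15 genes differed from the other sets, 8 of them with a lower effect here. Got2 differed by -0.81 ± 0.22 (adjusted p = 0.0132), Gdh by -0.90 ± 0.31 (adjusted p = 0.0478), and Eip55E by -1.0 ± 0.15 (adjusted p = 0.000405). Of the redox genes, PHGPx differed by -1.01 ± 0.18 (adjusted p = 0.0009), whereas Cat (-0.23 ± 0.19, adjusted p = 0.386) and CG6762 (-0.48 ± 0.26, adjusted p = 0.192) did not pass. Cytosolic ribosomal protein genes had medians of -0.14 in libraries 13 to 21 and 0.35, 0.37 and 0.34 in the others, and 28 of 79 differed, all with a lower effect in libraries 13 to 21.

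**Figure D5:**
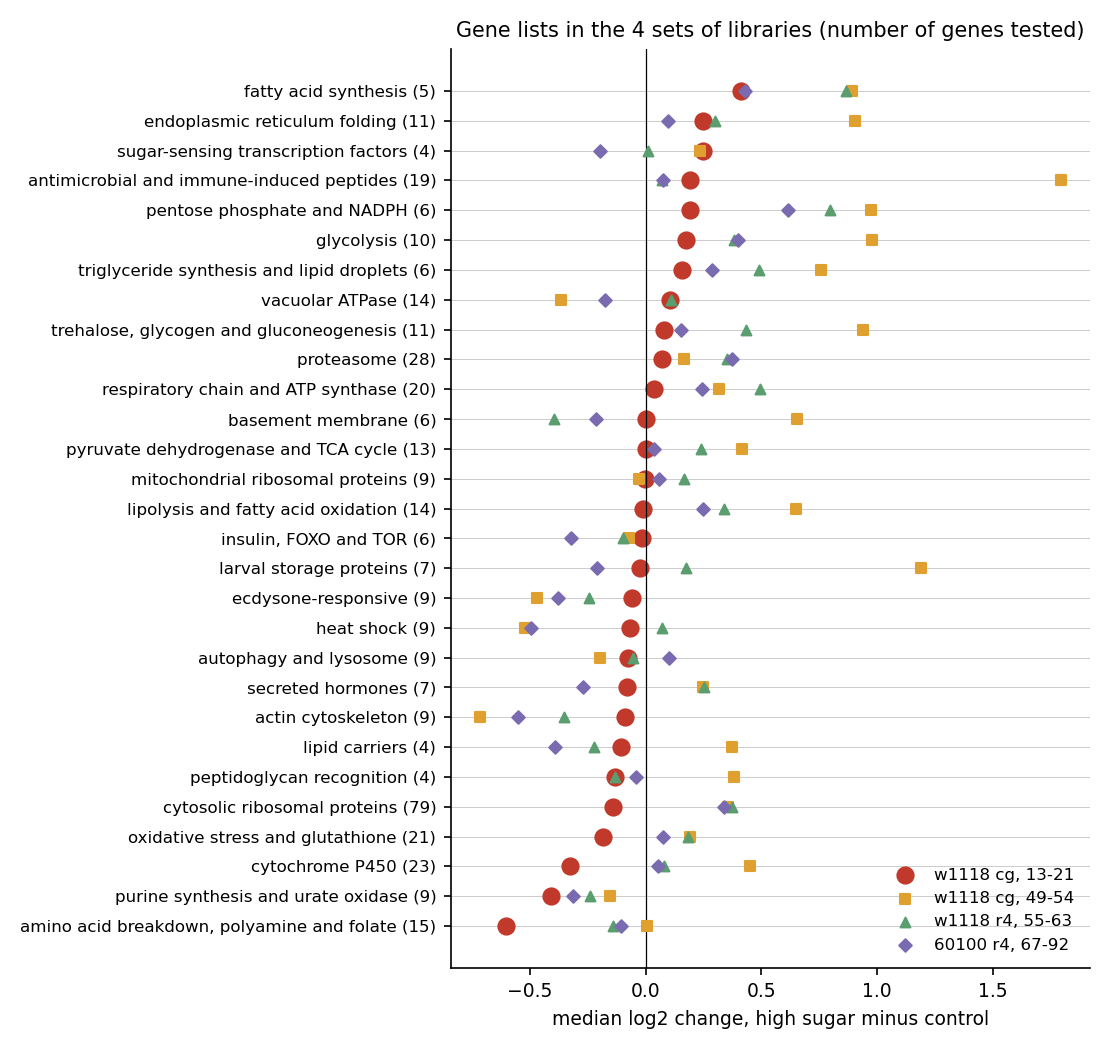
Each row is a pathway list (tissue marker lists are not drawn) with at least 4 tested genes (number in brackets), ordered by its median log2 change (high sugar minus control, horizontal axis) in libraries 13 to 21 (red circle), with the medians of libraries 49 to 54, 55 to 63 and 67 to 92 beside it. Among these pathway lists, amino acid breakdown, polyamine and folate is the lowest in libraries 13 to 21, at -0.60, and the lists of sugar and fat metabolism lie nearer to 0 in libraries 13 to 21 than in libraries 49 to 54.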

How the data were processed

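Fat body RNA, depleted of ribosomal RNA, was sequenced, and the table holds 14659 features in 26 libraries. Per the submitters' processing notes, TopHat 1.3.2, Bowtie 0.12.7, Cufflinks 1.1.0 and build dm3 were used. The deposited values, scaled by the authors, are read here as ratios to each library's upper quartile. The number of features behind the quartile is not stated. It was searched for in the values, and the 75th percentile was 1 over the 9608 highest features in each of the 6 libraries. The sums ran from 44732 to 53148. Read depth is unknown, so no counting error is given.

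Features with a mean of at least 1 over the 6 libraries were kept, and log2(value + 1) was compared with limma 3.58.1 in R 4.3.3 (trended empirical Bayes, Benjamini-Hochberg over 2423 genes, adjusted p under 0.05). The diet effect was compared with that in libraries 49 to 54 by a contrast in a fit over the w1118 cg libraries of both sets. It was compared with the mean of the other sets by a contrast in a fit over all 26 libraries. The changes within each other set came from a fit on that set alone. The diet fit over the 6 libraries was tested on simulated data, and the comparisons between sets were not. Tables and figures used Python 3.11.15, pandas 2.3.3 and matplotlib 3.10.9. RefSeq names were found for 13055 features. Genes named were the 15 largest called changes in each direction with a mean of at least 5 on either diet and no overlap, up to 4 of each list, a fixed set, and the 8 of smallest adjusted p in each comparison between sets. Where under 10 genes qualified in a direction, those of smallest p made up the number. Other called genes, and families, were named after their values were seen. The members and lists were chosen with earlier results of these data known. Alternatives changed the pseudocount, filter, scaling, fit and libraries, and covariates for marker genes were added after seeing the data. Sequences and coordinates are not used here.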

Additional observations from a re-analysis of the deposited data

Results flagged for a closer look

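The diet effect in libraries 13 to 21 differed from that in libraries 49 to 54 for 584 genes, and from the mean of the other sets for 477, with 314 genes in both comparisons. The genes below had the smallest adjusted p by limma in each comparison, and every one is given as the difference of 2 log2 changes, libraries 13 to 21 minus the others. Groups of 3 libraries were not searched for outlying samples.

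Against libraries 49 to 54, the difference was 2.77 for CG16727, 2.52 for CG15406, 2.51 for CG42235, 2.19 for CG17027, 1.95 for CG7882, 1.62 for CG30371, 1.55 for CG15209 and 1.53 for CG3690. CG16727 had 5.48, 6.91 and 6.68 on high sugar, against 7.41, 4.58 and 5.98 on control in libraries 13 to 21, and its change was 0.09 ± 0.18 there and -2.68 ± 0.21 in libraries 49 to 54. CG15406 changed by 0.41 ± 0.15 in libraries 13 to 21 and by -2.12 ± 0.14 in libraries 49 to 54. All 8 differences are positive, so the diet effect was higher in libraries 13 to 21.

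Against the other sets, ImpE2, an ecdysone-induced gene of the imaginal discs, differed by 2.40, with a change of 0.45 ± 0.31 in libraries 13 to 21. Act42A, a cytoplasmic actin, differed by 1.88 and Df31, a chromatin protein, by 1.05. CG15209 differed by 1.0 and NaPi-T by 0.89. The effect was lower in libraries 13 to 21 for Eip55E (Cth), by a difference of -1.0, for CG9691 (-1.50) and for CG13135 (-2.37). The value for CG13135 depends on the pseudocount, since the gene was listed at 0 in all high-sugar libraries and in every library of the other sets.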

How the results depend on the processing

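Against 70 genes called for diet (13 higher, 57 lower), 36 were called with no filter (16 higher, 20 lower), 222 in a fit over all 26 libraries, 110 with robust fitting and array weights, and 0 with salivary gland or muscle markers as a covariate (242 and 254 at an unadjusted p under 0.05, limma). Leaving out 1 library gave 19 to 53. Against libraries 49 to 54, 584 genes differed, with 987 under no filter, 303 at a mean of at least 5, and 414 to 570 without 1 library. Against the other sets, 477 differed, with 1699 under no filter, 234 at a mean of at least 5, and 301 to 453 without 1 library, the lowest without high-sugar library 20. Pseudocount 0.1, a stricter filter (mean 5), quantile normalization, median-of-ratios scaling, a fit without a trend and the midgut covariate kept the number called for diet within 1.5 times, at 57 to 76. Scaling moved the median change of all genes by less than 0.1. No called gene changed direction under the alternatives run. Quantile normalization turned the sign of list medians near 0, the cytosolic ribosomal proteins and actin lists among them. Of the 70 genes, 20 were called under every alternative that kept all 6 libraries, where they were tested, covariates aside. Crc was lost under pseudocount 0.1, no filter, median-of-ratios scaling and each library left out. The cause was not tested. Depth is unknown, so genes of low value carry a counting error that cannot be given. No paired analysis was possible because each library has a number of its own.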
